A study of Mus musculus with 8 samples.

Results

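The Rab family of small GTPases was followed in quiescent neural stem cells (qNSCs) whose lysosomes had been inhibited. A gene was taken as a member when its probe had a value on all 8 arrays and when the platform annotation gave it a symbol made of Rab, a number and at most a letter, so that effectors and regulators that carry Rab in their names were left out. The older symbol Rab7l1 was also taken, which is now Rab29. This rule gave 51 Rab genes, each measured by 1 probe, out of 14679 named genes and 20473 probes tested. A further gene, Rab15, met the rule on its name but had no value on 2 arrays and was not tested. Rab7, Rab18 and Rab26 are not analysed here, and Rab7b, Rab43 and Rab44 carry other names in the annotation and were not counted. Rab1 in these data is the gene now called Rab1a, and Rab9 is the gene also called Rab9a.

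The cells were 1 line of neural stem cells, made from embryonic ventral telencephalon of ICR mice and kept by passaging, so that all groups share 1 genetic source and no group stands for a separate animal. They had been held for 3 days in quiescence medium, which contains the growth factor BMP4 and no EGF. Control qNSCs were then kept in fresh quiescence medium for 4 h or 24 h, and BafA-treated qNSCs were kept for the same times in that medium with 20 nM bafilomycin A (BafA), a blocker of the vacuolar proton pump that acidifies lysosomes. Each of the 4 groups was measured on 2 single-colour arrays, and no source used here says whether the 2 arrays of a group came from separate cultures, so the p-values measure only the spread between these arrays, which may be technical. BafA is toxic to these cells over longer exposures. All groups had their medium renewed, so a change with time in control qNSCs cannot be told apart from an effect of the fresh medium.

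Rab proteins are switches of membrane traffic. Bound to GTP they sit on a particular membrane and recruit effectors such as tethers, motors and kinases, and bound to GDP they are drawn back into the cytosol. Activators (guanine nucleotide exchange factors, GEFs) load GTP, inactivators (GTPase-activating proteins, GAPs) trigger its hydrolysis, and a prenyl anchor added after translation holds the protein in the membrane. Different Rabs mark the path from endoplasmic reticulum to Golgi, the early, recycling and late endosomes, and secretory vesicles, and the late endosomal members guide cargo such as EGF receptor to the lysosome, the organelle that BafA disables.

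Signals are on the scale of each array's median, which was set to 25, and a level is never compared between genes, since each probe has its own sensitivity. Each array gave values for 21652 to 22077 of its 23473 probes, and the median spot was 1.57 to 1.72 times as bright as the blank spots. Signals of the 2 arrays of a group correlated at r = 0.995 to 0.998 over all probes. Control replicate 1 of 4 h and of 24 h had been scanned with gains that differ from those of the other 6 arrays. Of the Rab probes, those of Rab20 and Rab3c rose above the blank spots by more than 2 SD on only 6 of the 8 arrays. Fold changes are log2 values with a standard error (SE) from a fit of all 8 arrays in limma, with Benjamini-Hochberg adjustment of the p-values across the 20473 probes, and a gene was called when its adjusted p was under 0.05. The fit adds an offset to every spot, which shrinks the fold changes of dim probes. Folds computed from the signals as deposited, without that offset, are given beside some of the main changes. For dim genes without one below they differ, as at 24 h for Rab40b (1.71-fold lower as deposited, 1.19-fold in the fit) and Rab5b (1.47-fold higher as deposited, 1.16-fold in the fit).

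After 24 h with BafA, 10 Rab genes were higher and 6 were lower than in control qNSCs, which is 31.4% of the 51, while 27.3% of all probes were called (14.6% higher and 12.8% lower). The balance of directions was not stable, with 9 higher and 10 lower after quantile normalization. That of all probes shifted too, from 2984 higher and 2611 lower in the main fit to 3115 and 3171 after quantile normalization. The higher Rab genes of the main fit were Rab3b, Rab1, Rab2a, Rab3a, Rab39b, Rab24, Rab4b, Rab27b, Rab5b and Rab33a. The lower ones were Rab29, Rab31, Rab30, Rab6b, Rab4a and Rab40b. The share called was close to that of all probes, and the median change of its 51 genes was 0.059, against 0.021 over all probes. At 4 h no Rab gene was called, while 2.23% of all probes were (1.13% higher and 1.09% lower). At an unadjusted p under 0.05 in limma there were 3 Rab genes at 4 h, and the two-sample test of the study gave 4 without adjustment and 0 with it. Over all 20473 probes that two-sample test gave 1541 without adjustment and 1 with it. Arrays of the 2 groups did not overlap for 70.6% of the 51 genes at 24 h, of which 21 were higher and 15 lower with BafA, against 57.1% of all probes (32.6% higher and 24.5% lower). At 4 h they did not overlap for 43.1%, of which 8 were higher and 14 lower, against 38.1% of all probes (21.8% higher and 16.3% lower). All 16 genes called at 24 h were among the non-overlapping ones, and the plot of the fold change of each gene shows them by the compartment on which the proteins act.

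**Figure D1:**
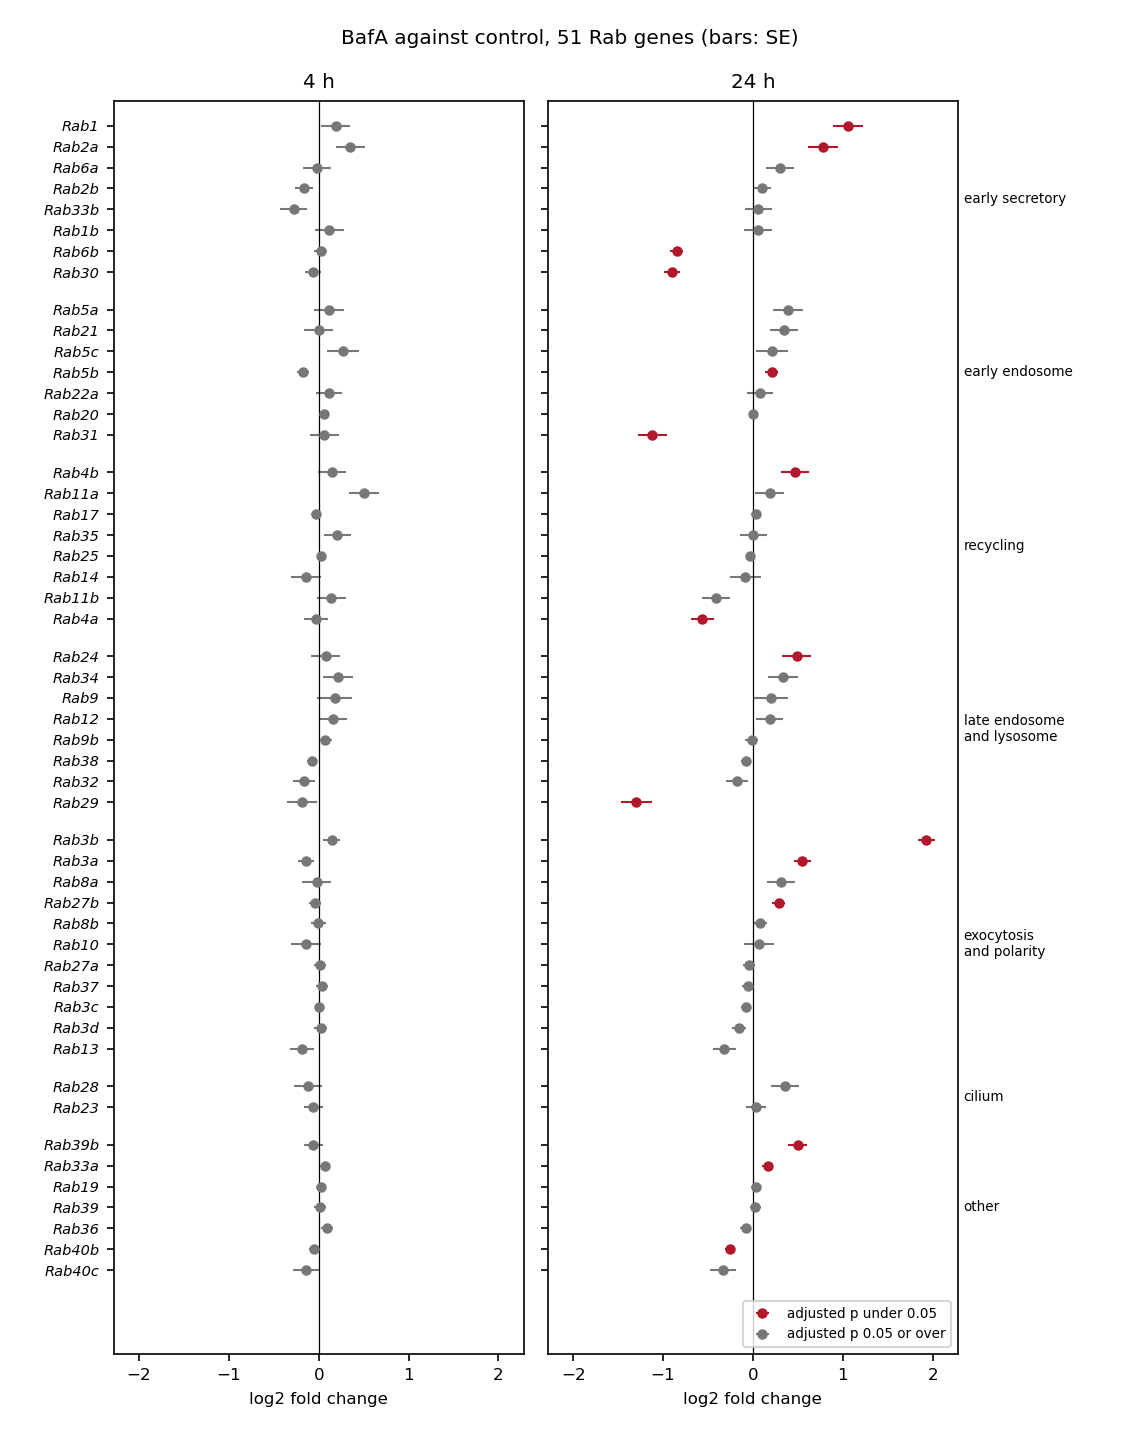
Log2 fold change of BafA-treated against control qNSCs at 4 h (left) and 24 h (right) for the 51 Rab genes, grouped by the compartment on which the protein acts, with 1 SE as a bar and n = 2 arrays per group. Genes with an adjusted p under 0.05 are red, and there are none at 4 h and 16 at 24 h, from Rab3b at 1.93 to Rab29 at -1.30.

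The promoters of the Rab genes were searched for the E-box CACGTG and for its longer form TCACGTGA, the core of the motif bound by TFEB, the factor that drives lysosomal genes and is known to respond to lysosomal stress. Windows of 300 bases, from 250 before to 50 after the annotated start, were taken from RefSeq on the build GRCm38.p6 and matched 44 of the 51 genes, with 49 windows. Both motifs read the same on both strands, and each longer site holds the shorter one. The longer motif was present in 3 of the 49 windows (6.12%), those of Rab21, Rab24 and Rab5a, beside 0.974% of all 32851 windows, and the shorter one in 6 windows (12.2%), with Rab20, Rab23 and Rab27a added, beside 7.15%. Rab21 is named here because of its motif. The 3 windows with the longer motif are printed first, with the motif in capitals. Those of Rab3b and Rab29, the genes with the largest rise and fall of the main fit at 24 h, follow and hold neither motif. They lie at chr13:55321931-55322230 on the minus strand for Rab24, chr17:53478984-53479283 on the plus strand for Rab5a, chr10:115315542-115315841 on the minus strand for Rab21, chr4:108878820-108879119 on the plus strand for Rab3b and chr1:131867027-131867326 on the plus strand for Rab29, each read 5′ to 3′ in the direction of the gene.
Rab24: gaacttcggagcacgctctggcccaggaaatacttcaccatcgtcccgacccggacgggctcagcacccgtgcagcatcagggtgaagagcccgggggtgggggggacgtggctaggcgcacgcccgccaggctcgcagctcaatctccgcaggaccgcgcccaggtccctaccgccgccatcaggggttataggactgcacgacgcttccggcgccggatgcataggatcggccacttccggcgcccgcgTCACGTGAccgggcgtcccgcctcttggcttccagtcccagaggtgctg
Rab5a: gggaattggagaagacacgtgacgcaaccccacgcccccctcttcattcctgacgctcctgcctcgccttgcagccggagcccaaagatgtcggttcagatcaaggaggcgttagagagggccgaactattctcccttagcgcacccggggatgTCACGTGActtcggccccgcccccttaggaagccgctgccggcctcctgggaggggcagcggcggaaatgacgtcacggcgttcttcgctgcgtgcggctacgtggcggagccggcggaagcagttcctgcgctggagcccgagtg
Rab21: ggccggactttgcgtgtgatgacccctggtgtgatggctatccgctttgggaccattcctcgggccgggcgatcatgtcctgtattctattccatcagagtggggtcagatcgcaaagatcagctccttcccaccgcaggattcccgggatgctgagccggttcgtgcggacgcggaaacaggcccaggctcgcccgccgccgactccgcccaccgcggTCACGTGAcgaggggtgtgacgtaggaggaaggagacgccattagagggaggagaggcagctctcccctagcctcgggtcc
Rab3b: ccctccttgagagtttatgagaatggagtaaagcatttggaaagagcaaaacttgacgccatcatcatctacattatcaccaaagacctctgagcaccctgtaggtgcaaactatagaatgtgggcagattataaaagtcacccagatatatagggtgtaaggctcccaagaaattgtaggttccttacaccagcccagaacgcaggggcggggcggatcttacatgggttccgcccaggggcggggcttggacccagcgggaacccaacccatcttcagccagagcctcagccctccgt
Rab29: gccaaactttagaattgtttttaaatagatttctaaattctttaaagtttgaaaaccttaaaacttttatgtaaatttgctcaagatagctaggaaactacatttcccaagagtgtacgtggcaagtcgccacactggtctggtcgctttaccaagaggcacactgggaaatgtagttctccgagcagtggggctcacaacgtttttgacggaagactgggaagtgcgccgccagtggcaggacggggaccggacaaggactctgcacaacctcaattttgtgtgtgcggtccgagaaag
Of the 3 genes with the longer motif, Rab24 was called at 24 h, though not under every alternative tried. The BafA arrays of Rab5a and Rab21 lay above the control arrays without passing the test, the latter at 175 and 142 in control against 202 and 199 with BafA (0.35, SE 0.16, adjusted p = 0.12, or 0.047 with the deposited values). BafA arrays lay above control arrays for 32.6% of all probes at 24 h. The longer motif was in 1 of 9 windows of genes called higher, 0 of 4 of genes called lower and 2 of 36 of genes not called. In the Rab24 window the motif begins at or next to the annotated start, and in the windows of Rab5a and Rab21 it lies before the start. A match is a description of the letters in the window and says nothing of binding in these cells. Rab genes have close paralogs, and the probe sequences were not used here, so that the sharing of signal between paralogs was not tested.

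At 24 h, 2 of the 8 Rabs of the early secretory pathway were higher with BafA and another 2 were lower (50% called, against 27.3% of all probes). Rab1, which directs traffic from the endoplasmic reticulum to the Golgi, had signals of 629 and 648 on the control arrays and 1184 and 1489 on the BafA arrays. Both BafA arrays lay above both control arrays, and the log2 fold change was 1.06 (SE 0.16, adjusted p = 1.8e-05), or 2.15-fold as deposited. Its paralog Rab1b, which has the same task, gave 222 and 251 in control against 222 and 272 with BafA, so that the groups overlapped (0.06, SE 0.16, adjusted p = 0.86). Rab2a acts on membranes between endoplasmic reticulum and Golgi and is also known to take part in the fusion of autophagosomes with lysosomes. Its control signals were 502 and 514 and its BafA signals 785 and 973, again without overlap (0.78, SE 0.16, adjusted p = 0.00061). Rab2b gave 35.8 and 37.2 against 35.2 and 43.5, and did not pass the test (0.10, SE 0.10, adjusted p = 0.53).

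The 2 lower genes of this group act at the Golgi. Rab30, a Golgi Rab, had control signals of 64.3 and 58.1 and BafA signals of 32.3 and 33.2. The BafA arrays lay near the level of the 4 h arrays, which spanned 32.1 to 34.4, and the change at 24 h was -0.90 (SE 0.09, adjusted p = 2e-08), or 2.39-fold lower as deposited. Rab6b, the form of Rab6 that is enriched in neurons and serves retrograde traffic to and through the Golgi, had signals of 43.5 and 42.6 in control and 23.5 and 24.4 with BafA. It too was high only on the control arrays of 24 h, since its 4 h arrays spanned 24.7 to 25.7, and the change was -0.85 (SE 0.07, adjusted p = 2e-09), or 2.7-fold lower as deposited. The widely expressed Rab6a gave 1076 and 1098 against 1301 and 1381, without overlap but short of the threshold (0.30, SE 0.15, adjusted p = 0.17), which it passed with the deposited values (adjusted p = 0.049).

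Of the 7 Rabs of early endosomes, 1 was higher and 1 was lower at 24 h (28.6% called, against 27.3% of all probes). Rab31 moves cargo between the trans-Golgi network and endosomes and is known to affect the traffic of EGF receptor. On the control arrays it reached 2288 and 1830, and on the BafA arrays 811 and 1093. The groups were far apart (-1.12, SE 0.16, adjusted p = 7.5e-06), 2.15-fold lower as deposited. Of the 3 forms of Rab5, which govern the fusion and identity of early endosomes, 1 was called. Rab5a had 571 and 477 in control and 699 and 673 with BafA, with no overlap and an adjusted p of 0.084 (0.39, SE 0.17), and it passed with scan setting as a block (0.52, adjusted p = 0.034) and with the deposited values (adjusted p = 0.022). Rab5b had 18 and 19.5 against 21.4 and 21.9 and was called (0.21, SE 0.07, adjusted p = 0.026), although the call was lost without control 24 h replicate 1 (adjusted p = 0.18) and without BafA 24 h replicate 1 (0.086) or 2 (0.17). Rab5c gave 528 and 529 against 537 and 700 (0.21, SE 0.18, adjusted p = 0.45).

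Among the 8 Rabs of recycling endosomes, the close paralogs Rab4a and Rab4b, which return receptors from early endosomes to the cell surface, were called in opposite directions at 24 h. They were the only calls of this group (25%, against 27.3% of all probes). Rab4a fell from 131 and 127 on the control arrays to 82.0 and 93.3 on the BafA arrays (-0.56, SE 0.13, adjusted p = 0.0017). Rab4b stood at 198 and 247 in control and at 308 and 303 with BafA (0.47, SE 0.16, adjusted p = 0.027). The Rab4b call rested on single arrays, since it was lost without control replicate 1 (0.31, adjusted p = 0.36), BafA replicate 1 (adjusted p = 0.076) or BafA replicate 2 (adjusted p = 0.069), and also when scan setting entered the fit as a block (adjusted p = 0.14). Rab11a, the marker of the recycling endosome, had the largest change of any Rab gene at 4 h, from 773 and 706 in control to 980 and 1118 with BafA. That difference did not pass the adjusted test (0.50, SE 0.16, adjusted p = 0.14), and at 24 h the groups overlapped at 1354 and 1039 against 1237 and 1480 (0.19, adjusted p = 0.47). Rab11b pointed the other way at 24 h, with 365 and 343 in control and 244 and 291 with BafA, without overlap and short of the threshold (-0.41, SE 0.16, adjusted p = 0.062), and it passed without BafA 24 h replicate 2 (-0.54, adjusted p = 0.032) and after quantile normalization (adjusted p = 0.0062).

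The 8 Rabs of late endosomes, lysosomes and autophagic membranes held the largest fall of the main fit, that of Rab29. As deposited, Rab6b (2.7-fold) and the dim Rab3c (3.67-fold) were lower by more than Rab29 (2.63-fold). Rab29, which acts at the trans-Golgi network and lysosomes and recruits the kinase Lrrk2 to them, had control signals of 255 and 383 and BafA signals of 125 and 130. Both BafA arrays were below all 6 other arrays, and the change was -1.30 (SE 0.17, adjusted p = 1.9e-06), or 2.63-fold lower as deposited. It remained called when the brighter control array, replicate 2, was left out (-1.0). Rab24, an unusual member of the family that is found on autophagic structures and whose promoter holds the longer E-box printed above, gave 220 and 189 in control and 259 and 316 with BafA (0.49, SE 0.16, adjusted p = 0.025). Without control 24 h replicate 2 or BafA 24 h replicate 2 its adjusted p was 0.20. Rab9, which returns mannose 6-phosphate receptors from late endosomes to the Golgi, had overlapping groups at 483 and 569 against 543 and 666 (0.20, SE 0.20, adjusted p = 0.55), and Rab9b gave 21.1 and 23.2 against 21.8 and 22.0 (-0.01, adjusted p = 0.93). The other 4 genes of this group, Rab12, Rab32, Rab34 and Rab38, did not pass the test at 24 h, although Rab34 passed without BafA 24 h replicate 1 (0.57, adjusted p = 0.022).

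At 24 h, 3 of the 11 Rabs of exocytosis and cell polarity were called, all higher. This is 27.3% of the group, the same share as over all probes (27.3%). Rab3b changed more than any other member of the family. Rab3 proteins sit on regulated secretory vesicles, such as synaptic vesicles and hormone granules. Rab3b had signals of 31.3 and 27.2 on the control arrays and 113 and 109 on the BafA arrays of 24 h, while its 4 arrays of 4 h spanned 27.2 to 31.6. It was thus high on the 2 BafA arrays of 24 h alone, and its change was 1.93 (SE 0.09, adjusted p = 7e-14), or 6.04-fold as deposited. Rab3a, its relative on synaptic vesicles, rose from 43.1 and 36.8 to 58.2 and 58.6 (0.55, SE 0.09, adjusted p = 4.9e-05). Rab3d gave 34.8 and 36.8 against 32.7 and 31.7, without overlap but not called (-0.15, SE 0.08, adjusted p = 0.15), and Rab3c was dim, at 14.2 and 13.9 against 13.7 and 12.8. As deposited, the dim Rab3c values gave a 3.67-fold lower signal with BafA, which passed in the fit of the deposited values (log2 change -1.85, adjusted p = 0.0027) and not in the main one (-0.08, adjusted p = 0.26).

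Rab27a and Rab27b dock secretory granules and are known to be needed for the release of exosomes. Rab27b had 24.1 and 22.2 in control and 28.6 and 27.8 with BafA (0.29, SE 0.07, adjusted p = 0.0023), a difference of 1.49-fold as deposited. Rab27a did not pass the test, with overlapping groups at 25.5 and 26.2 against 24.4 and 25.9 (-0.04, SE 0.07, adjusted p = 0.74). Both Rabs of the primary cilium, Rab23 and Rab28, missed the threshold as well, although Rab28 passed with the deposited values (0.40, adjusted p = 0.013).

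Outside these compartments, 3 further genes of 7 were called (42.9%, against 27.3% of all probes). Rab39b, a Rab that is abundant in neurons and is mutated in a form of intellectual disability, had 50.8 and 45.6 in control and 69.2 and 67.0 with BafA, and its 4 h arrays lay between 46.8 and 52.0. It was raised on both BafA arrays of 24 h (0.50, SE 0.11, adjusted p = 0.00066), whereas its paralog Rab39 had a change of 0.03 (adjusted p = 0.83). Rab40b belongs to a branch of the family that carries a SOCS box and joins ubiquitin ligases, and it had 22.1 and 20.8 in control and 18 and 17.9 with BafA (-0.26, SE 0.06, adjusted p = 0.0014). Its paralog Rab40c did not pass (-0.33, SE 0.14, adjusted p = 0.089), but did without control 24 h replicate 2 (-0.50, adjusted p = 0.024). Rab33a, named here after its values were seen, made the smallest change that passed, from 18.9 and 19.6 to 21.8 and 21.3 (0.17, SE 0.06, adjusted p = 0.04), and its adjusted p lay between 0.053 and 0.18 when any 1 array of BafA or the first control array of 24 h was left out.

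**Figure D2:**
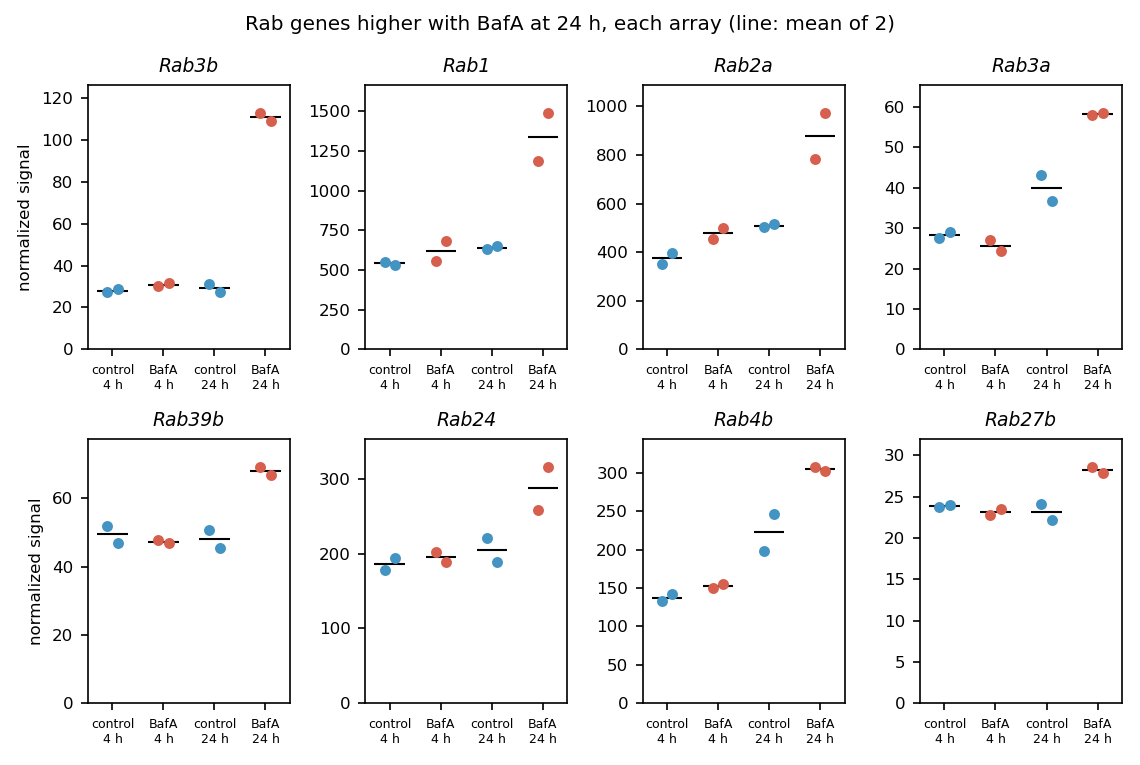
Normalized signal of each array (points; blue for control, red for BafA; line at the mean of 2 arrays) for the 8 Rab genes with the largest rise at 24 h, on linear axes that start at 0. The BafA arrays of 24 h lie above all others in every panel, and Rab3b reaches 113 and 109 against at most 31.6 elsewhere.

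**Figure D3:**
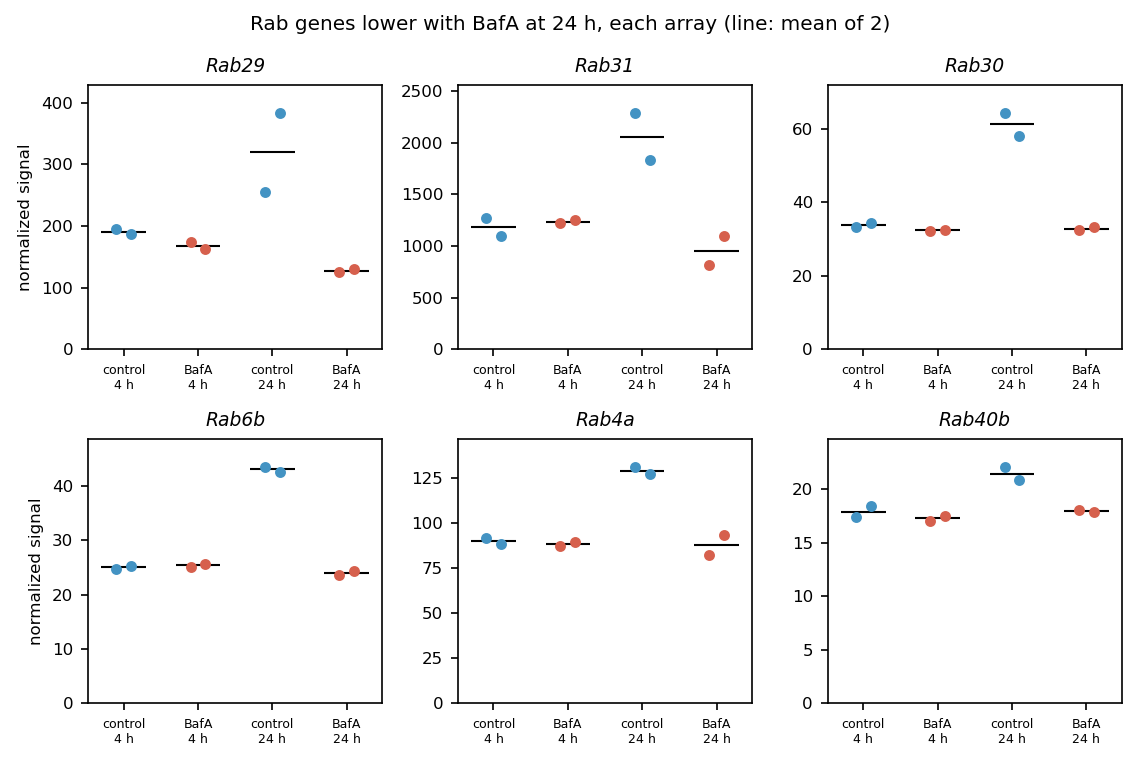
Normalized signal of each array (points; blue for control, red for BafA; line at the mean of 2 arrays) for the 6 Rab genes that were lower with BafA at 24 h, on linear axes that start at 0. In every panel the control arrays of 24 h lie above all other arrays, as for Rab30 at 64.3 and 58.1 against at most 34.4.

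The BafA effect itself was compared between the times, as the change at 24 h minus that at 4 h. It differed for 10 of the 51 genes, which is 19.6%, beside 14.7% of all probes (7.38% positive and 7.3% negative). The difference was positive for Rab3b (1.78, SE 0.13, adjusted p = 6.4e-10), Rab1 (0.87), Rab3a (0.69), Rab39b (0.56), Rab5b (0.38) and Rab27b (0.33). It was negative for Rab31 (-1.18, SE 0.23, adjusted p = 0.00065), Rab29 (-1.11), Rab6b (-0.87) and Rab30 (-0.83). Of the other 6 genes called at 24 h, the difference between times did not pass for Rab2a (0.43, adjusted p = 0.27), Rab4a (-0.53, adjusted p = 0.055), Rab24, Rab4b, Rab33a or Rab40b. The Rab4a difference did pass with a replicate block or with scan setting as a block (adjusted p = 0.043 in each), after quantile normalization (0.022), with the deposited values (0.024), without a variance trend (0.017) and without BafA 24 h replicate 2 (0.04), and that of Rab40b passed without control 24 h replicate 2 (adjusted p = 0.047). Rab2a was already higher on both BafA arrays at 4 h, at 455 and 498 against 352 and 396, with an unadjusted p of 0.042 and an adjusted p of 0.47. Rab5b was lower on both BafA arrays at 4 h, at 22.9 and 25.8 against 27.3 and 27.5, with an unadjusted p of 0.021. With Rab11a, these were the 3 Rab genes with an unadjusted p under 0.05 at 4 h.

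The levels of many Rab genes also changed with time. Between 4 h and 24 h in control qNSCs, 19 rose and 5 fell, which is 47.1% of the 51, against 33% of all probes (18.8% higher and 14.2% lower), and the median change was 0.13, against 0.01 over all probes. Among probes with a mean signal over 100 the shares were 50% of 24 Rab genes and 49.3% of all probes. Without control 4 h replicate 1, 15 of the 51 were called (29.4%), against 24.3% of all probes. With BafA, 21 rose and 4 fell over the same time, 49% against 37.3% of all probes (21.4% higher and 15.9% lower). After quantile normalization 15 rose and 10 fell, and with the deposited values 23 rose and 9 fell. Over all probes 4391 rose and 3246 fell in the main fit, 4257 and 4207 after quantile normalization, and 4856 and 3725 with the deposited values. All 6 genes that were lower with BafA at 24 h had risen with time in control qNSCs, by 0.85 for Rab30, 0.79 for Rab31, 0.78 for Rab6b, 0.71 for Rab29, 0.52 for Rab4a and 0.26 for Rab40b. None of these 6 was called over time with BafA, where the changes were 0.02, -0.39, -0.08, -0.40, -0.01 and 0.06 in the same order. These comparisons share the control arrays of 24 h, so that the rise and the lower level with BafA are not independent of each other. The Rab29 rise was lost without control 24 h replicate 2 (0.42, adjusted p = 0.11).

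The 10 genes that were higher with BafA followed several courses over time. In control qNSCs 3 of them rose (Rab4b by 0.68, Rab3a by 0.49 and Rab2a by 0.44), Rab5b fell by 0.55, and the other 6 were not called. Over time with BafA 9 of the 10 were called, against 37.3% of all probes. The 10 genes were chosen for being high on the BafA arrays of 24 h. The comparison over time with BafA uses the same arrays, so that its count is not independent of the choice. Rab3a rose in both series, from 27.5 and 29.0 at 4 h to 43.1 and 36.8 in control, and from 27.1 and 24.3 to 58.2 and 58.6 with BafA. The Rab2a rise in control qNSCs was lost when any 1 control array was left out (adjusted p from 0.071 to 0.24).

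**Figure D4:**
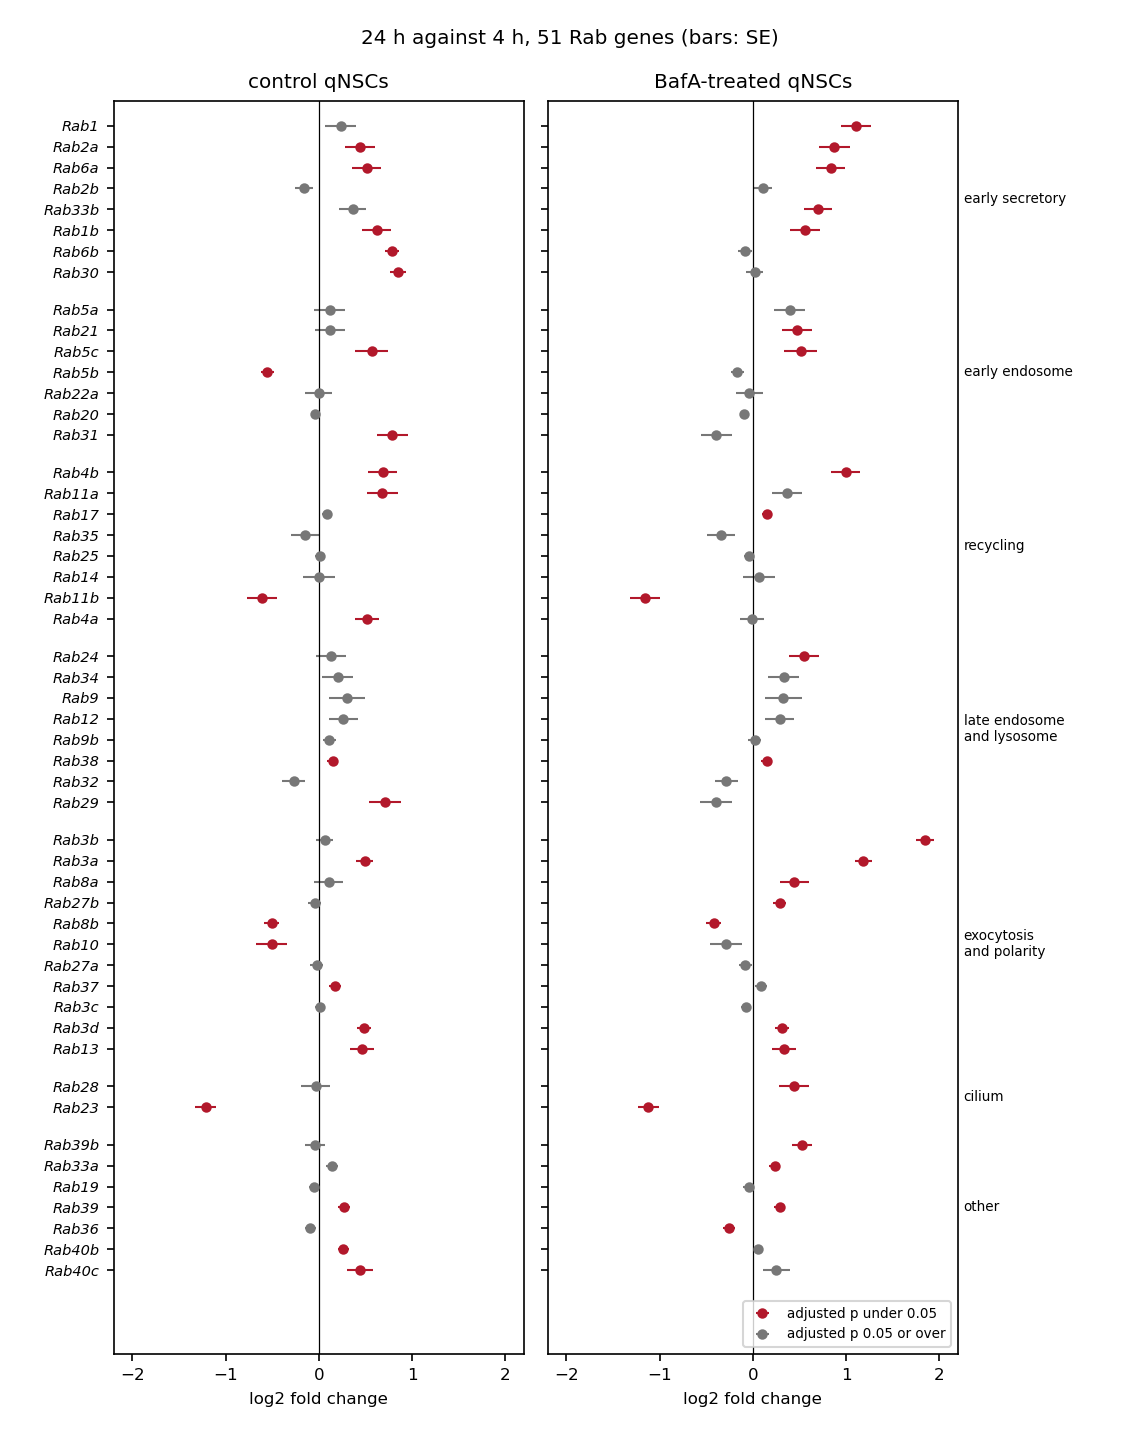
Log2 fold change from 4 h to 24 h in control qNSCs (left) and in BafA-treated qNSCs (right) for the 51 Rab genes, grouped by compartment, with 1 SE as a bar, n = 2 arrays per group and adjusted p under 0.05 in red. Rab6b and Rab30 rose by 0.78 and 0.85 in control qNSCs and stood at -0.08 and 0.02 with BafA, while Rab23 fell in both.

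Rab23, a Rab linked to the cilium that restrains Hedgehog signalling, made the largest fall with time in control qNSCs and is named here after its values were seen. Its signals were 81.9 and 82.1 in control and 76.5 and 80.8 with BafA at 4 h, and 35.9 and 34.8 in control and 33.0 and 39.6 with BafA at 24 h. All 4 arrays of 24 h lay far below all 4 of 4 h, with changes of -1.21 (SE 0.11, adjusted p = 5.5e-09) in control and -1.12 (adjusted p = 1e-08) with BafA, and BafA against control gave 0.03 at 24 h (adjusted p = 0.88). Rab11b fell with time from 555 and 524 to 365 and 343 in control (-0.61, adjusted p = 0.0046) and from 606 and 582 to 244 and 291 with BafA (-1.16, adjusted p = 2.7e-06). Its control fall had an adjusted p of 0.055 without control 4 h replicate 1. Rab11a moved the other way in control qNSCs, by 0.68 (adjusted p = 0.0019), and that rise had an adjusted p of 0.053 without control 24 h replicate 1. Rab1b rose in control qNSCs by 0.62 and with BafA by 0.56, and Rab6a by 0.51 and 0.84. The Rab1b rise in control was lost without control 4 h replicate 1 (adjusted p = 0.076), and that of Rab6a without control 4 h replicate 2 (adjusted p = 0.18) or control 24 h replicate 2 (adjusted p = 0.054).

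The proteins that switch Rabs were drawn from lists of GEFs, GAPs, effectors and prenylation factors. At 24 h with BafA, 7 GEFs were higher and 5 lower of 34 tested (35.3%), 10 GAPs were higher and 4 lower of 39 (35.9%), and 7 effectors were higher and 5 lower of 45 (26.7%), beside 27.3% of all probes. The medians were 0.001, 0.067 and 0.011, against 0.021 over all probes. Of the 4 genes for prenylation and membrane extraction, 1 was higher, Rabggtb (0.55, adjusted p = 0.012), which encodes the beta subunit of the enzyme that attaches the prenyl anchor. At 4 h 3 of the 39 GAPs were called (7.69%, against 2.23% of all probes). They were Tbc1d10a (0.81, adjusted p = 0.00045), Tbc1d2b (0.53, adjusted p = 0.0031) and Grtp1 (-0.30, adjusted p = 0.038). No Rab gene, GEF or effector was called at 4 h, and the difference between these lists was not tested.

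**Figure D5:**
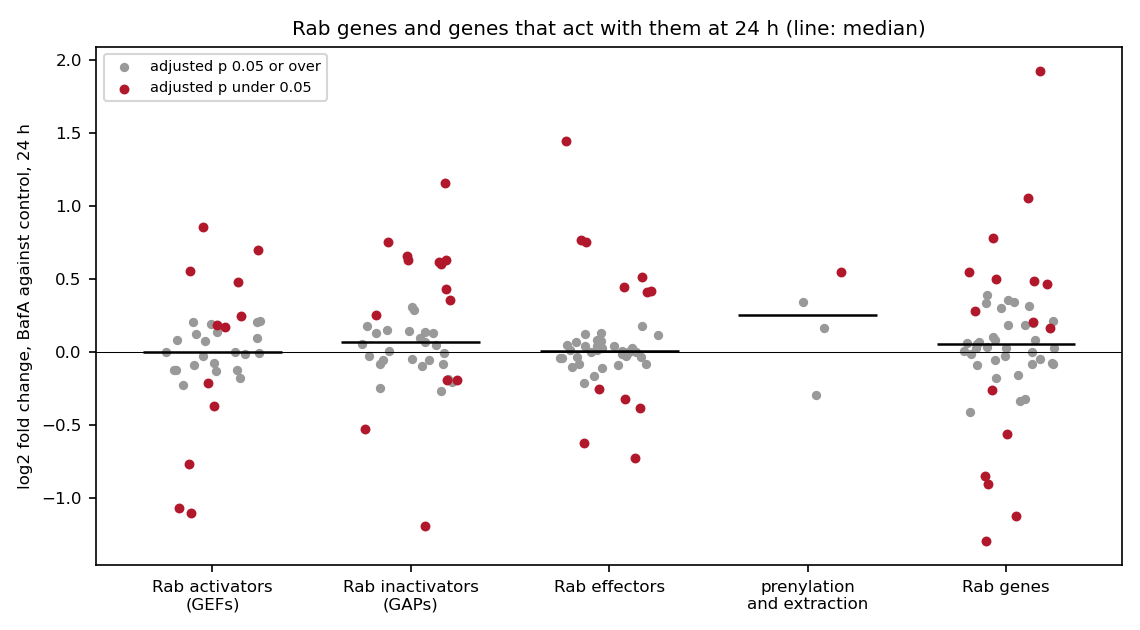
Log2 fold change of BafA-treated against control qNSCs at 24 h for each gene of the lists of GEFs, GAPs, effectors and prenylation factors and for the 51 Rab genes, with a line at the median of each and red points for an adjusted p under 0.05. Points are spread sideways at random, and called genes lie on both sides of 0 in all lists except that for prenylation, where the 1 called gene lies at 0.55.

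Some of the called regulators act on Rabs described above, and others on Rabs that are not, such as Rab7 and Rab8. Lrrk2, the kinase that is recruited by Rab29 and phosphorylates several Rab proteins, had the largest change of the effectors, a rise of 1.44 (adjusted p = 1.1e-12), while Rab29 itself was lower. Golga2 (GM130), a Golgi tether to which Rab1 binds, was higher by 0.77 (adjusted p = 4.8e-06), as Rab1 was. Plekhm1, an adaptor of Rab7 on late endosomes and lysosomes, was higher by 0.76 (adjusted p = 3.3e-05), and Sytl2, which links Rab27 to the plasma membrane, was lower (-0.72, adjusted p = 5.7e-05). Among the GEFs, Rab3il1, an exchange factor for Rab8, was lower (-1.10, adjusted p = 1.8e-07), as were Rin2, which acts on Rab5 (-1.07, adjusted p = 0.00011), and Hps4, a part of the complex that activates Rab32 and Rab38 (-0.77, adjusted p = 1.1e-07). Dennd2a, an exchange factor for Rab9, was higher (0.86, adjusted p = 5.8e-05). In the list of GAPs, Tbc1d2b was lower at 24 h (-1.19, adjusted p = 1.4e-09) after being higher at 4 h. Tbc1d1, which controls Rabs of glucose transporter vesicles, was higher (1.16, adjusted p = 1.3e-08), as were Tbc1d23 (0.75) and Rab3gap2 (0.66). Whether each listed gene has GAP activity was not tested.

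Several called Rabs are enriched in neurons, and the markers of cell types were therefore set beside them. Markers of neurons and neuroblasts had a summed signal of 383 to 430 on the control arrays of 24 h and 183 to 187 on the BafA arrays, against 241 to 245 in control and 227 to 230 with BafA at 4 h. Of the 8 tested, 6 were lower with BafA at 24 h, among them Tubb3 (-2.22) and Dcx (-0.81), and 1 was higher, Snap25 (0.27). This is 87.5% of the list, against 27.3% of all probes (14.6% higher and 12.8% lower). The summed neuron markers were highest on the control arrays of 24 h, as was Rab6b. All 6 Rab genes that were lower with BafA at 24 h shared this, so it was not particular to Rab6b. Rab3b and Rab39b were high on the BafA arrays of 24 h. Rab3a was highest on those BafA arrays but had also risen with time in control qNSCs (0.49, adjusted p = 0.00017 in limma). Markers of neural stem cells and astroglia summed to 38686 to 38688 in control and 28972 to 29691 with BafA at 24 h. A sum follows its brightest probes, such as Aldoc, at 9869 and 9126 in control and 4259 and 4687 with BafA. Fabp7, also bright, went the other way, from 8799 and 8163 to 10507 and 10271. Of 13 tested 2 were higher, among them Nes (2.02), and 8 were lower, among them Gfap (-2.12) and Aqp4 (-1.78). This is 76.9% called, against 27.3% of all probes. Markers of endothelial, mural and fibroblast cells summed to 356 to 364 in control and 153 to 155 with BafA at 24 h, after 1251 to 1612 and 1406 to 1697 at 4 h. Of the 8 tested 2 were lower at 24 h (25%, against 27.3% of all probes), with a list median of -0.014. Acta2, a smooth muscle actin, stood at 227 and 211 in control and 28.5 and 30.1 with BafA. At 4 h Acta2 alone read 1488 and 1123 in control and 1278 and 1572 with BafA. Markers of the oligodendrocyte lineage summed to 2064 to 2443 in control and 2667 to 2743 with BafA at 24 h. Of 10 tested 1 was higher and 2 were lower (30%, near the 27.3% of all probes). Markers of microglia stayed between 164 and 179 on all arrays, and 0 of 9 was called at either time by limma, with 0 at an unadjusted p under 0.05. Over all probes 2.23% were called at 4 h and 27.3% at 24 h. Most of the microglia probes were dim, such as C1qa at 13.1 to 14.2, so that a fall could hardly have shown. In such bulk RNA, fewer cells of a type and less RNA per cell cannot be told apart, and the part of other cell types in the Rab values was not tested.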

How the data were processed

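RNA of 8 qNSC samples had been hybridized to single-colour oligonucleotide arrays with Cy5. The authors deposited the scanner output, which holds unnormalized spot intensities, and a table of signal values that they had scaled by the median of each array, with the blank level subtracted as read from the values. The group of each array came from its label. Gene symbols came from the platform annotation, which named 16631 probes and left 6842 unnamed, and 3947 symbols were updated through RefSeq synonyms.

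In R 4.3.3 with limma 3.58.1, spot intensities were corrected by normexp with an offset of 50, ignoring the local surround, and control spots were removed. Arrays were brought to a common median of 25 and turned to log2. Of 23473 probes, the 20473 that had values on every array were fitted with 1 coefficient per group and a variance trend (4 residual and 19.3 prior degrees of freedom). With 2 arrays in each group the smallest two-sided p of an exact permutation test is 0.333, so none was used. The script was tested on simulated data with known fold changes.

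The members, role lists and tests were chosen with earlier results of these data known. Values are printed for the 14 Rab genes with the largest change at 24 h among those that passed with groups apart, for organelle marker Rabs, for their paralogs, and for up to 4 genes of each regulator list at each time. Any other gene named was chosen after its values were seen. Tables were read with Python 3.11.15 and pandas 2.3.3, and figures were drawn with matplotlib 3.10.9. The alternatives tried were other normalizations, background, filters, blocks, tests and each array left out in turn.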

Additional observations from a re-analysis of the deposited data

Results flagged for a closer look

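The difference of the BafA effects between 24 h and 4 h passed the adjusted test in limma for 10 Rab genes, and each is given with its log2 difference. It was positive for Rab3b (1.78, adjusted p = 6.4e-10), Rab3a (0.69, adjusted p = 0.00047), Rab5b (0.38, adjusted p = 0.0082), Rab39b (0.56, adjusted p = 0.0099), Rab1 (0.87, adjusted p = 0.011) and Rab27b (0.33, adjusted p = 0.02). It was negative for Rab6b (-0.87, adjusted p = 1.1e-06), Rab30 (-0.83, adjusted p = 3.2e-05), Rab31 (-1.18, adjusted p = 0.00065) and Rab29 (-1.11, adjusted p = 0.002). The arrays of both times enter each value, with 2 arrays per group. For Rab1 the adjusted p rose to 0.083 without BafA 4 h replicate 1 and to 0.059 without BafA 24 h replicate 2, and for Rab39b to 0.065 without control 4 h replicate 1. For Rab27b it rose to 0.1 without BafA 4 h replicate 1, 0.056 without control 24 h replicate 2, and 0.078 and 0.053 without BafA 24 h replicate 1 and 2, and for Rab5b to 0.095 without BafA 4 h replicate 1 and 0.058 without BafA 24 h replicate 2. The other 6 differences stayed under the threshold whichever array was left out.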

How the results depend on the processing

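With 2 arrays per group, and with no stated separate cultures, the calls rest on few values. Of the 16 Rab genes called at 24 h, 1 remained (Rab3b) when the signal around each spot was subtracted, and the counts were then 0 for the difference between times, 0 for control 24 h against 4 h and 1 for BafA 24 h against 4 h. That setting also turned the sign of Rab27b (-0.065), Rab33a (-0.0095) and Rab3a (-0.013) at 24 h, of the Rab1 difference (-0.21) and of Rab17 over time with BafA (-0.0074), and it left 187 of 5595 calls over all probes at 24 h. The signal around a spot followed the spot closely (Spearman 0.958 to 0.974 per array). With only probes of a mean signal over 100, where 24 Rab genes were measured, the counts were 7 at 24 h (29.2%, against 42.3% of all probes), 3 for the difference (12.5%, against 23%), 12 over time in control (50%, against 49.3%) and 16 with BafA (66.7%, against 59.6%). The two-sample t-test on the signals processed here gave 4 Rab genes at 4 h and 16 over time with BafA without adjustment, beside 1541 and 6353 of all probes. It gave 0 Rab genes after Benjamini-Hochberg in the 4 comparisons of groups, and it was not run on the difference between times. Fitting only the groups compared gave 1 call at 4 h (Rab11a, adjusted p = 0.019), and the 6 arrays of one scan setting gave 15 calls over time in control, of which 13 were among the 24.

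With 1 array left out the number of Rab genes called ran from 13 to 17 at 24 h, from 7 to 10 for the difference, from 15 to 22 over time in control and from 17 to 28 over time with BafA, and it was 0 at 4 h. Of the 16 genes called at 24 h, 12 stayed called under every limma alternative that measured them, except that Rab3b alone did so when the signal around the spot was subtracted, and Rab24, Rab4b, Rab5b and Rab33a lost the call under others too. Quantile normalization called 19 at 24 h (9 higher and 10 lower), which is 37.3% beside 30.7% of all probes. The deposited values called 21 (13 higher and 8 lower), which is 41.2% beside 31.1% of all probes. Of each, 15 were shared with the 16 in the same direction. The replicate numbers did not pair the arrays (correlation of same-numbered deviations -0.22 to 0.32), and a replicate block gave 0 at 4 h, 16 at 24 h, 11 for the difference, 24 over time in control and 26 with BafA. A crossed replicate block at 4 h, chosen after seeing the data, gave 0 Rab genes and 711 calls over all probes against 456.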

Other observations

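Of the Rab genes that the annotation lists under other names, Rab7b was lower with BafA at 24 h (-0.19, adjusted p = 0.012), Rab43 was higher (0.16, adjusted p = 0.034) and Rab44 did not pass (0.09, adjusted p = 0.35).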
